A study of Mus musculus with 22 samples.

Results

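The 7 genes described here, Myrf, Mbp, Mobp, Mag, Mog, Cnp and Ermn, are genes of oligodendrocytes and their myelin. They were taken by gene name from 2 deposited tables of raw read counts, each with 54532 gene models, and all 7 were in both. Oligodendrocytes wrap axons of the brain and optic nerve in layers of membrane that speed conduction. In the mouse the axons of retinal ganglion cells run bare through the retina and acquire myelin only behind the optic nerve head, so that a dissected retina with choroid normally holds no myelin unless a piece of nerve comes along. Several genes of this set are also transcribed in other cells, Myrf in the retinal pigment epithelium among them.

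The data are bulk RNA sequencing of mouse retina and choroid taken as 1 piece, from a study of natural killer cells in choroidal neovascularisation (CNV), in which choroidal vessels grow in under the retina, here after laser burns. Adult C57BL/6J wild-type mice gave 4 control libraries without CNV, 4 at day 3, 4 at day 7 and 4 at day 14 counted from the burn. Another set of libraries, all lasered and taken at day 3, has 3 libraries from Rag2-/-γc-/- mice, which lack T, B and natural killer cells, and 3 from Rag2-/- mice, which lack T and B cells. The Rag2 deletion is thus common to both groups of that set, and it has no unlasered group. Age beyond "adult", sex, and whether each library is a separate animal are not stated in the labels, so p-values measure the spread between libraries, which may be in part technical. Control replicate 4 is titled as without CNV but carries a laser treatment tag.

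Libraries held 15034000 to 16848000 counts in the wild-type set and 27228000 to 30315000 in the Rag2 set, rounded. Levels are counts-per-million values (CPM, scaled with edgeR's TMM factors), and a count of 0 allows up to 0.176 to 0.217 CPM in a wild-type library and 0.099 to 0.112 CPM in a Rag2 library. Intervals and limits of this kind cover counting error only. The sets were normalised separately, and no test was made between them. Calls were made where the adjusted p was under 0.05 by edgeR's quasi-likelihood test with Benjamini-Hochberg adjustment over all genes tested, 18657 in the wild type and 18923 in the Rag2 set. Of the 7 genes, 5 passed the filter on low counts in the wild type, and Mag and Mobp did not, while all 7 passed in the Rag2 set.

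Wild-type retina and choroid held almost none of the transcripts that only myelinating cells make in quantity. Levels between genes are compared here per kilobase of gene model. In control libraries Ermn stood at 6.68 ± 1.37 CPM per kilobase, Myrf at 6.08 ± 1.29, Mbp at 5.47 ± 0.813 and Cnp at 3.72 ± 0.552 (SD, n = 4). Mog came to 0.281 ± 0.114 CPM per kilobase, Mag to 0.0869 ± 0.042 and Mobp to 0.0419 ± 0.0488 (SD, n = 4). The order thus has a group of 4 genes well above a group of 3. Within the upper group the SDs of Ermn, Myrf and Mbp overlap, and so do those of Mag and Mobp in the lower group.

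The oligodendrocyte markers Opalin, Olig1 and Olig2 also had few counts in the wild type. Opalin, a membrane protein of mature oligodendrocytes, had 0 to 3 counts a library over the 16 libraries. Olig2, a factor that defines the lineage, had 0 or 1 count, and its partner Olig1 had 0 to 5. Sox10, a factor shared by oligodendrocytes, Schwann cells and melanocytes, lay between 7.13 and 21.03 CPM.

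**Figure D1:**
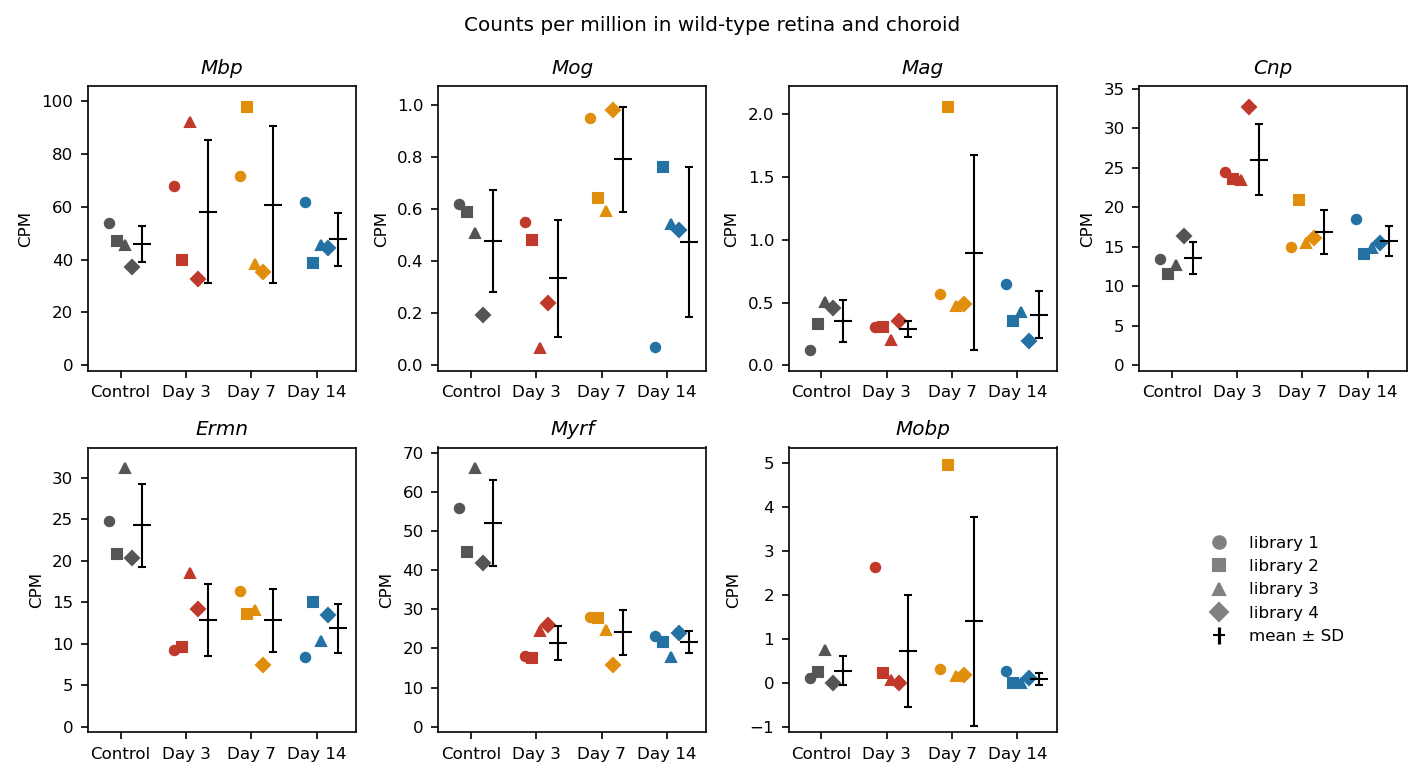
Level of each gene (CPM, linear axis from 0 or the lower end of the error bar) in the 16 wild-type libraries by group, with the group mean ± SD (n = 4) as a black bar. Myrf and Ermn lie lower in all groups after the laser than in control, Cnp is highest at day 3, and Mobp and Mag are near 0 apart from single libraries.

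Across the 5 tested genes, 3 were called at day 3, of which 1 was higher and 2 were lower, against 14.7% of all genes tested. Called genes made up 6.97% of all genes in the higher direction and 7.77% in the lower direction. At day 7, 2 of 5 were called, both lower, against 10.5% of all genes and 6.9% called lower. At day 14, 1 of 5 was called, lower, against 0.273% of all genes and 0.241% called lower. Between days after the laser 0 of 5 were called. The day 7 libraries against day 3 gave 0% of all genes called by edgeR, with 1144 genes at an unadjusted p under 0.05 and 63 called by DESeq2, and the day 14 libraries against day 3 gave 0.00536%. The median log2 fold change of the 5 genes was -0.50 at day 3, 0.32 at day 7 and 0.01 at day 14, beside 0.01, 0.03 and 0.04 over all genes tested. The 3 day comparisons share their controls.

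**Figure D2:**
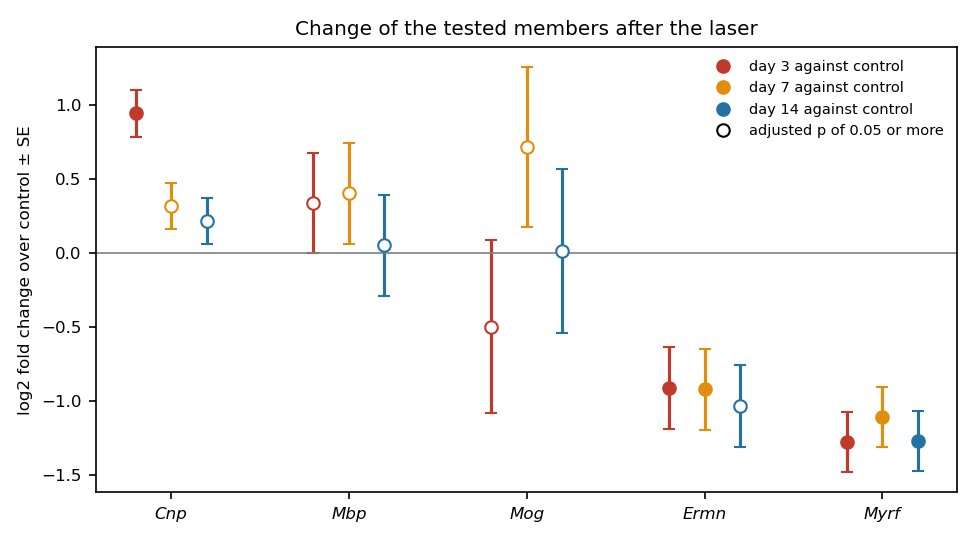
Log2 fold change over control, with its SE, of the 5 tested genes at day 3, day 7 and day 14, filled where edgeR's adjusted p is under 0.05. Myrf is filled at all 3 days at -1.28 to -1.11, Ermn at day 3 and day 7, and Cnp at day 3 only, at 0.94; Mbp and Mog are open at all 3 days.

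Myrf (ENSMUSG00000036098, chromosome 19, 10208272 to 10240748, minus strand, mm10) encodes a membrane-bound factor that cuts itself free and then switches on myelin genes in oligodendrocytes. It was lower at every time after the laser. Control libraries 1 to 4 had 55.7, 44.5, 66.0 and 41.9 CPM of Myrf. The day 3 libraries had 18.1, 17.4, 24.5 and 25.9 CPM, the day 7 libraries 28.1, 27.9, 24.8 and 15.9 CPM, and the day 14 libraries 23.2, 21.6, 17.8 and 23.9 CPM. Each of the 12 libraries after the laser lay below each of the 4 controls, with no overlap. The log2 fold change of Myrf was -1.28 ± 0.201 at day 3 (SE, edgeR adjusted p = 0.00541), -1.11 ± 0.201 at day 7 (edgeR adjusted p = 0.00877) and -1.27 ± 0.201 at day 14 (edgeR adjusted p = 0.0267). The day 3 call held with any 1 library left out. The day 7 call was lost without control replicate 3 (edgeR adjusted p = 0.0516), and the day 14 call was lost without any 1 of the 4 controls or day 14 replicate 3. The authors' deposited table gives Myrf log2 fold changes of -1.25, -1.09 and -1.25 at day 3, 7 and 14.

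Ermn (ENSMUSG00000026830, chromosome 2, 58045113 to 58052864, minus strand, mm10) encodes ermin, an actin-binding protein of the cytoplasm of late oligodendrocytes. Its fall resembled that of Myrf in size but was less certain. Control libraries 1 to 4 had 24.7, 20.9, 31.1 and 20.3 CPM of Ermn. The day 3 libraries had 9.31, 9.66, 18.5 and 14.2 CPM, the day 7 libraries 16.3, 13.5, 14.1 and 7.43 CPM, and the day 14 libraries 8.45, 15.1, 10.4 and 13.5 CPM. As for Myrf, all 12 libraries after the laser lay below all 4 controls. Ermn fell at day 3 (log2 fold change -0.91 ± 0.273, SE, edgeR adjusted p = 0.0412) and at day 7 (-0.92 ± 0.274, edgeR adjusted p = 0.0459). At day 14 it stood at -1.03 ± 0.274, which did not pass (edgeR adjusted p = 0.0748). The authors' deposited table gives Ermn log2 fold changes of -0.88, -0.90 and -1.02 at day 3, 7 and 14, with adjusted p-values of 0.00261, 0.00331 and 0.00374, all 3 under 0.05. The day 3 call held in 1 of 8 runs that leave out 1 library, that without day 3 replicate 3, and the day 7 call held in 0 of 8. Over these runs edgeR's adjusted p reached 0.122 at day 3 and 0.148 at day 7. Galnt5 overlaps Ermn on the other strand but had at most 15 counts a library.

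Markers of the retinal pigment epithelium were lower at day 3, as Myrf and Ermn were. At day 7 the median summed level of their list was not. This epithelium is the pigmented layer between the photoreceptors and the choroid that the laser burns through. Of 9 genes on its list, 5 were called lower at day 3 (Lrat, Rpe65, Stra6, Rgr and Rrh), 1 at day 7 (Lrat) and 0 at day 14, and none was called higher. Their summed level had a median of 2498 CPM in control libraries (2212 to 3135 CPM), 1579 CPM at day 3 (1264 to 1993 CPM), 2681 CPM at day 7 (1198 to 2861 CPM) and 1901 CPM at day 14 (1527 to 2198 CPM). The median log2 fold change of the 9 genes was -0.65 at day 3, -0.19 at day 7 and -0.65 at day 14. At day 7, when Myrf and Ermn were both called lower, the median summed level of the list was not below that of control. Abundant genes weigh most in that sum, and Ttr averaged 953 CPM in control and 1221 CPM at day 7. Means at day 7 were lower for Rpe65 (134 against 222 CPM), Lrat (50.9 against 141 CPM), Stra6 (59.2 against 102 CPM) and Rgr (561 against 837 CPM). Those of Rrh and Slc16a8 were slightly lower, and those of Rdh5 and Best1 were higher. Rpe65, the isomerase of the visual cycle, stood at 81.0 ± 24.7 CPM at day 3 and 222 ± 48.2 CPM in control (SD, n = 4), and its log2 fold change was -1.45 ± 0.317 (SE, edgeR adjusted p = 0.0164). In bulk samples fewer cells of a type and less RNA per cell cannot be told apart.

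Within groups, libraries rich in pigment epithelium transcripts were also rich in Myrf and Ermn. Over the 16 wild-type libraries, with each group's mean removed, Myrf correlated with the mean log2 CPM of the pigment epithelium list at r = 0.91 (rho 0.84, adjusted permutation p = 0.01995 and 0.0098 for rank) and Ermn at r = 0.90 (rho 0.76, adjusted permutation p = 0.02205 and 0.112 for rank). Without the 2 libraries farthest from the gene's median, r was 0.88 for Myrf and 0.86 for Ermn. These belong to a family of 70 relations, of 7 genes with 10 lists, over which p was adjusted. The centred scores left a gap between -0.12 and 0.11. A split of the libraries at this gap was not planned beforehand. Its exact p-values permute all libraries of a side, not within groups as above. Among the 9 libraries above it r was 0.51 for Myrf and 0.17 for Ermn (exact permutation p = 0.167 and 0.674), with rho 0.53 and 0.05 (exact p = 0.148 and 0.912). Among the 7 below it r was 0.73 for Myrf and 0.74 for Ermn (exact permutation p = 0.0817 and 0.175), with rho 0.36 and 0.18 (exact p = 0.444 and 0.713). Without the 2 farthest libraries r was 0.86 and 0.18 above the gap and -0.23 and 0.40 below it, again Myrf before Ermn. None of these passed. The smaller numbers and the narrower range of the score within each side leave such tests little power, so they do not show whether the relation holds there.

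With the pigment epithelium score as a covariate, an alternative chosen after seeing the data, Ermn at day 3 stood at -0.10 on the log2 scale (edgeR adjusted p = 0.762) and Myrf at -0.67 (edgeR adjusted p = 0.0791). At day 7 both were still called, Ermn at -0.62 (edgeR adjusted p = 0.0421) and Myrf at -0.88 (edgeR adjusted p = 0.00974). At day 14 Myrf was at -0.82 (edgeR adjusted p = 0.177). That fit calls 2 genes in all at day 3, so its p-values at day 3 say little about single genes. The genes whose log2 CPM over the 16 libraries was most like that of Myrf were Col8a2 (r = 0.97), Sema3c, Gm13111, Stra6 and Pltp (each r = 0.93 to 0.94), of which Stra6 is on the pigment epithelium list. Ermn and Myrf had the highest r of the 21 pairs of members within groups, 0.81 (rho 0.75), and 0.85 without the 2 farthest libraries, with an adjusted permutation p of 0.0874 (0.104 for rank).

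**Figure D3:**
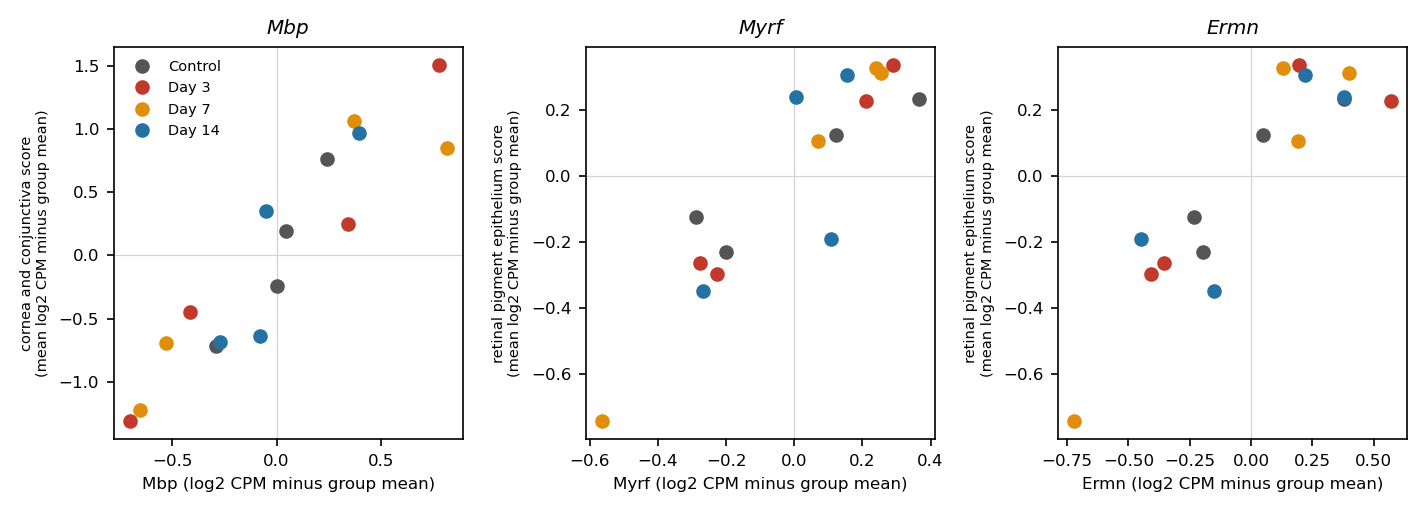
Mbp, Myrf and Ermn (log2 CPM minus the group mean, horizontal) against the score of a marker list (mean log2 CPM minus the group mean, vertical) in the 16 wild-type libraries, coloured by group. Mbp follows the cornea and conjunctiva score (r = 0.93), and Myrf and Ermn the pigment epithelium score (r = 0.91 and 0.90), the last 2 with a gap near 0.

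Genes called on the other lineage lists are given beside the share of all tested genes called. That share was 14.7% at day 3, 10.5% at day 7 and 0.273% at day 14, and no set test was made of these lists. Of 17 further genes of mature oligodendrocytes, 11 were tested in the wild type, with 0 called at day 3 or day 14 and 1 at day 7. The gene called at day 7 was Tspan2, a tetraspanin of early myelinating cells, at 2.84 ± 0.654 CPM against 5.44 ± 0.706 CPM in control (SD, n = 4), with -0.93 ± 0.254 as its log2 fold change (SE, edgeR adjusted p = 0.0354). Of 7 lineage factors 4 were tested and Sox10 was called lower at day 3, at 11.01 ± 3.52 CPM against 18.5 ± 2.04 CPM in control (SD, n = 4), with -0.75 ± 0.232 as its log2 fold change (SE, edgeR adjusted p = 0.0446). Of 8 precursor genes 6 were tested, and Tnr, a matrix protein also of retinal neurons, was called lower at day 3 and day 7. Of 9 cholesterol synthesis genes, which supply myelin membrane, 0 were called at day 3, 7 or 14, with median log2 fold changes of 0.24, 0.24 and 0.14.

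Mbp (ENSMUSG00000041607, chromosome 18, 82475146 to 82585637, plus strand, mm10) encodes myelin basic protein, which holds the inner faces of the compact myelin membrane together. The gene also gives rise to golli transcripts outside myelin, and counts per gene sum both kinds. The pseudogene Rpl21-ps8 overlaps it on the other strand, with up to 219 counts a library. Control libraries 1 to 4 had 53.8, 47.0, 45.7 and 37.2 CPM of Mbp. The day 3 libraries had 67.8, 40.0, 91.9 and 32.8 CPM, the day 7 libraries 71.7, 97.8, 38.3 and 35.1 CPM, and the day 14 libraries 61.8, 38.9, 45.4 and 44.5 CPM. Groups overlapped at every time, and libraries of 1 group differed widely at day 3 and day 7. The log2 fold change was 0.34 ± 0.338 at day 3 (SE, edgeR adjusted p = 0.472), 0.40 ± 0.339 at day 7 (edgeR adjusted p = 0.416) and 0.05 ± 0.339 at day 14 (edgeR adjusted p = 0.934), and none passed. When lens and cornea scores entered as covariates, its direction turned, to -0.28 at day 3, -0.41 at day 7 and -0.43 at day 14, again not called.

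The libraries high in Mbp were those high in transcripts of the ocular surface. Within groups Mbp correlated with the cornea and conjunctiva list at r = 0.93 and rho = 0.93 over 16 libraries (adjusted permutation p = 0.0063 and 0.0049 for rank), and at r = 0.92 without the 2 farthest libraries. The summed level of that list, all 10 genes tested, was 2521 to 7641 CPM in control libraries, 4746 to 33602 CPM at day 3, 5134 to 26763 CPM at day 7 and 5711 to 19918 CPM at day 14. Of its genes 3 were called higher at day 3, 1 at day 7 and 0 at day 14. Mbp also passed against the interferon response list, at r = 0.66 (rho 0.69, adjusted permutation p = 0.02205, 0.0567 for rank), and r was 0.62 without the 2 farthest libraries. The other relations of Mbp did not pass. Closest to Mbp over the 16 libraries were Mst1r, a receptor kinase of epithelia (r = 0.96), Gm14137, Gne, St6galnac2 and Phyhip (each r = 0.95). In the Rag2 set the same cornea list summed to 1.98 to 6.77 CPM in Rag2-/-γc-/- libraries and 2.78 to 9.44 CPM in Rag2-/- libraries. Mbp in the lowest library of that set was still 34.0 CPM.

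Mobp (ENSMUSG00000032517, chromosome 9, 120149707 to 120181484, plus strand, mm10), which encodes a structural protein of compact central myelin, marked single libraries. Control libraries 1 to 4 had 0.124, 0.262, 0.762 and 0 CPM of Mobp, and the day 14 libraries had 0.289, 0, 0 and 0.13 CPM. Day 3 replicate 1 had 2.63 CPM (43 counts) against 0 to 0.241 CPM in the other day 3 libraries, and day 7 replicate 2 had 4.96 CPM (77 counts) against 0.178 to 0.316 CPM in the other day 7 libraries. Day 7 replicate 2 was also the highest in Mbp and in Mag of all 16 libraries. Day 3 replicate 3, in contrast, had 91.9 CPM of Mbp with 1 count of Mobp. Its cornea and conjunctiva score was the highest of its group, 1.51 above the group mean on the log2 scale. The score of day 7 replicate 2 was also above its group mean, by 0.85. A high Mbp in the wild type thus came both with and without Mobp.

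Mag (ENSMUSG00000036634, chromosome 7, 30899176 to 30914873, minus strand, mm10), an adhesion protein of the innermost myelin wrap that faces the axon, had 0.12 to 0.51 CPM in control, 0.20 to 0.36 CPM at day 3, 0.47 to 2.06 CPM at day 7 and 0.19 to 0.65 CPM at day 14. Only day 7 replicate 2 passed 1 CPM, with 32 counts. Mog (ENSMUSG00000076439, chromosome 17, 37010743 to 37023398, minus strand, mm10), which lies on the outermost surface of the sheath, ranged from 0.07 to 0.98 CPM over all 16 libraries, or 1 to 16 counts. Mog passed the filter but was not called, with log2 fold changes of -0.50 ± 0.583 at day 3 (SE, edgeR adjusted p = 0.545), 0.72 ± 0.538 at day 7 (edgeR adjusted p = 0.363) and 0.01 ± 0.552 at day 14 (edgeR adjusted p = 0.991). Without the filter, Mag and Mobp had edgeR adjusted p-values of 0.183 to 0.936 against control. The lowest was that of Mag at day 7, where the log2 fold change was 1.35 ± 0.553 (SE), a group in which replicate 2 stood apart. The SE of Mobp was 1.45 to 1.92 on the log2 scale. A change of these 3 genes was not detected, and neither low counts nor the spread between libraries was tested as the limit.

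Cnp (ENSMUSG00000006782, chromosome 11, 100574904 to 100591729, plus strand, mm10) is a phosphodiesterase that keeps channels of cytoplasm open in myelin and is also made outside oligodendrocytes. In the wild type it was the only tested gene of the set called higher after the laser. Control libraries 1 to 4 had 13.5, 11.6, 12.7 and 16.3 CPM of Cnp. The day 3 libraries had 24.4, 23.5, 23.4 and 32.7 CPM, the day 7 libraries 14.9, 20.9, 15.5 and 16.1 CPM, and the day 14 libraries 18.5, 14.1, 14.9 and 15.4 CPM. All 4 day 3 libraries lay above all 12 others, whereas day 7 and day 14 overlapped control. The log2 fold change at day 3 was 0.94 ± 0.158 (SE, edgeR adjusted p = 0.00779), and the call held with any 1 library left out (edgeR adjusted p at most 0.033). At day 7 it was 0.32 ± 0.158 (edgeR adjusted p = 0.176) and at day 14 0.22 ± 0.158 (edgeR adjusted p = 0.39), neither of which passed. From day 3, Cnp differed by -0.63 at day 7 (edgeR adjusted p = 0.429) and by -0.73 at day 14 (edgeR adjusted p = 0.193), which did not pass either. The authors' deposited table has Cnp at 0.97 at day 3.

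Cnp shares part of its locus with Dnajc7 on the other strand, which had up to 2375 counts a library, and the strand setting of the counting is not known, so reads of the 2 cannot be told apart where they overlap. Astrocyte and inflammatory genes moved in the same libraries. Of 7 astrocyte genes 2 were called higher at day 3, Gfap and Agt, and the summed astrocyte level was 400 to 512 CPM at day 3, against 204 to 268 CPM in control. Of 12 monocyte and macrophage genes 10 were called higher at day 3, and of 14 interferon response genes 5. Within groups Cnp did not pass against any list, the closest being astrocytes at r = 0.65 (rho 0.38, adjusted permutation p = 0.105, 0.844 for rank), and 0.53 without the 2 farthest libraries. Over the 16 libraries the genes most like Cnp were Crym (r = 0.92), Hkdc1 (r = 0.91), Glipr2 (r = 0.91), Cxcl10 (r = 0.90) and Gfap (r = 0.89), likeness that includes the difference between days. The part of these cells in the change of Cnp was not tested.

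Promoters are shown for 3 of the 5 members in the promoter table used, Cnp, which rose at day 3, Ermn, which fell, and Mobp, which marked single libraries. They are RefSeq windows on GRCm38.p6 from 250 bases before to 50 after a start, written 5′ to 3′ on the gene's own strand. Capitals mark the Myrf motif CTGGCAC or CTGGTAC and the SOX motif AACAAT or AACAAAG, searched on both strands.
Cnp (chr11:100574689-100574988, plus strand): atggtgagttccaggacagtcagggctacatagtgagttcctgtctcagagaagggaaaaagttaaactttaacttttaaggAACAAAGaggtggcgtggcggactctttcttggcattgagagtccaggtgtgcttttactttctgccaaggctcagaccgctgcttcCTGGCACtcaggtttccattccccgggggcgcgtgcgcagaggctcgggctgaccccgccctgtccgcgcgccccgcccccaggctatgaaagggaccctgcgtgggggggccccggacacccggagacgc
Ermn (chr2:58052815-58053114, minus strand): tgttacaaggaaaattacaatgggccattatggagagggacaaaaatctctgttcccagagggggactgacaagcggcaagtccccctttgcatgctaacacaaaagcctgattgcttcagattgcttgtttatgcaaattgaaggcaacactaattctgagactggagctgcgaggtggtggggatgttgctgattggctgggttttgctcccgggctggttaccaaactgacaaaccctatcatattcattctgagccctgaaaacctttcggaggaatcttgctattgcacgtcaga
Mobp (chr9:120149492-120149791, plus strand): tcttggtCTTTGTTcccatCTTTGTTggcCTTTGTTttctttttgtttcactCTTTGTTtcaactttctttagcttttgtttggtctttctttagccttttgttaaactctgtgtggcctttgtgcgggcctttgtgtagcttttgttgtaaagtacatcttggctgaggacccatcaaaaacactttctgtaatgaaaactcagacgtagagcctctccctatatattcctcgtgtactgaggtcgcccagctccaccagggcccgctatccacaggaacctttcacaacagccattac
Cnp holds 1 match to each motif, Mobp holds 4 SOX matches, all on its other strand (so that they read CTTTGTT), and Ermn holds none. Of all 32851 mouse promoter windows, 7.10% hold the Myrf motif and 15.7% the SOX motif. Of the other genes with a window, Mog had 1 Myrf match and Mag had 1 in 2 of its 3 windows. A match is a description of these letters and not evidence of binding.

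In the Rag2 set, taken at day 3, single libraries held many more myelin transcripts, in both genotypes. Of the 7 genes 0 were called between Rag2-/-γc-/- and Rag2-/- by edgeR, with 1 at an unadjusted p under 0.05 (Ermn) and 0 by DESeq2, against 0.465% of all genes called. The median log2 fold change of the 7 was -0.51, beside 0.00 over all genes tested. The labels state no pairing of the replicate numbers in this set, so the likeness of the libraries numbered 3 is given as a measurement only.

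**Figure D4:**
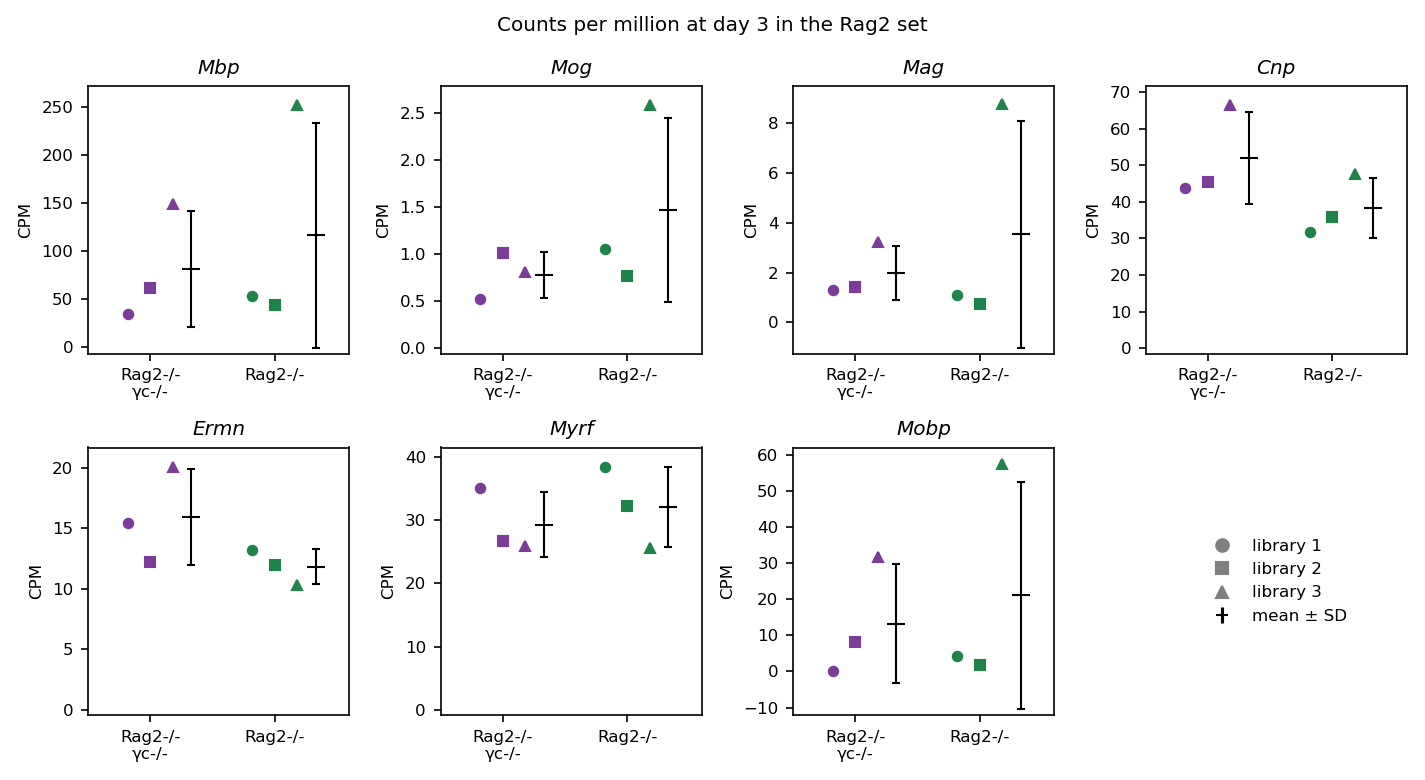
Level of each gene (CPM, linear axis from 0 or the lower end of the error bar) at day 3 in 3 Rag2-/-γc-/- and 3 Rag2-/- libraries, with mean ± SD (n = 3) as a black bar. The libraries numbered 3 (triangles) stand far above the others in Mbp, Mag and Mobp in both genotypes, while Cnp, Ermn and Myrf spread less.

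Among the compact myelin genes, Mobp had 0.0373, 8.18 and 31.7 CPM in Rag2-/-γc-/- libraries 1 to 3, or 1, 227 and 896 counts, against 4.32, 1.71 and 57.6 CPM in Rag2-/- libraries 1 to 3, or 131, 51 and 1739 counts. Mbp had 34.0, 61.5 and 149 CPM in the Rag2-/-γc-/- libraries, against 52.9, 44.0 and 251 CPM in the Rag2-/- libraries. Library 3 was the highest of its genotype for both genes, and the genotypes overlapped. The log2 fold change was -0.67 ± 1.99 for Mobp (SE, edgeR adjusted p = 0.908) and -0.51 ± 1.01 for Mbp (edgeR adjusted p = 0.86). Without both libraries numbered 3, an alternative chosen after seeing the data, Mobp stood at 0.43.

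The surface proteins followed in part. Mag had 1.30, 1.41 and 3.22 CPM in Rag2-/-γc-/- libraries, against 1.09, 0.74 and 8.80 CPM in Rag2-/- libraries, with library 3 highest in each genotype (log2 fold change -0.84 ± 1.07, edgeR adjusted p = 0.765). Mog had 0.52, 1.01 and 0.81 CPM in Rag2-/-γc-/- libraries, against 1.06, 0.77 and 2.58 CPM in Rag2-/- libraries, so that library 3 was highest in Rag2-/- but not in Rag2-/-γc-/- (-0.91 ± 0.497, edgeR adjusted p = 0.437). Without the libraries numbered 3 the direction of Mag turned, to 0.56.

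The oligodendrocyte markers Opalin and Olig2 had few counts in the Rag2 set. Opalin had at most 12 counts a library and Olig2 at most 13. Of the 6 genes held most specific to mature oligodendrocytes, Opalin among them, 4 were tested and 0 were called. Their summed level was 3.32 to 6.69 CPM in Rag2-/-γc-/- and 5.25 to 10.9 CPM in Rag2-/-, against 2.60 to 4.69 CPM over the wild-type libraries, a set normalised separately. Whether a piece of optic nerve came with these libraries was not tested beyond these levels.

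The ratio of Mbp to Mobp differed between libraries. In the 2 libraries with the most Mobp, Mbp gave 4.70 counts per Mobp count in Rag2-/-γc-/- library 3 and 4.37 in Rag2-/- library 3. The ratio was 7.52 in Rag2-/-γc-/- library 2, 12.2 in Rag2-/- library 1 and 25.8 in Rag2-/- library 2. In the wild type the 3 libraries with at least 10 Mobp counts gave 25.8 (day 3 replicate 1), 19.7 (day 7 replicate 2) and 59.9 (control replicate 3). The less Mobp a library of the Rag2 set held, the more Mbp it held per count of Mobp, among the 5 with at least 10 counts. Mobp is the denominator of this ratio, so a lower ratio at higher Mobp is in part built in. Rag2-/-γc-/- library 1 held 913 counts of Mbp with 1 count of Mobp.

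**Figure D5:**
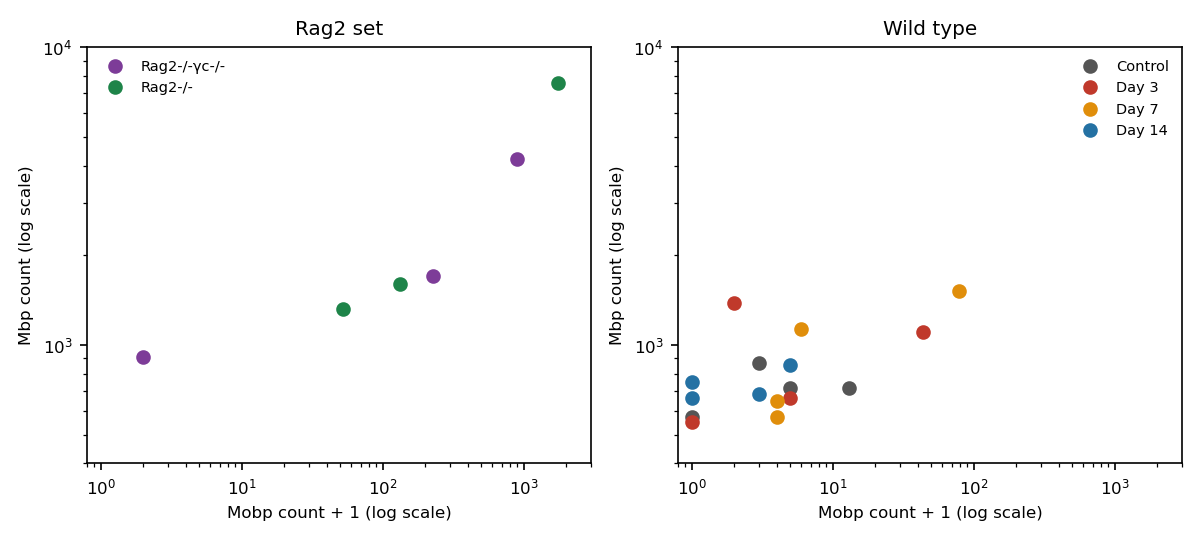
Raw counts of Mbp against Mobp + 1 (both axes logarithmic) in the 6 Rag2 set libraries (left) and the 16 wild-type libraries (right), 1 point per library. In the Rag2 set Mbp climbs with Mobp from a floor near 913 counts to 7598 counts, and in the wild type Mbp varies among libraries with few or no Mobp counts.

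In the Rag2 set Cnp was highest in library 3 of both genotypes, as Mobp was, though with a narrower spread. Ermn and Myrf did not follow Mobp in both genotypes. Cnp had 43.9, 45.4 and 66.3 CPM in Rag2-/-γc-/- libraries, against 31.7, 35.9 and 47.6 CPM in Rag2-/- libraries, overlapping only through Rag2-/- library 3 (log2 fold change 0.43 ± 0.217, edgeR adjusted p = 0.422). With the score of the 4 tested among those 6 oligodendrocyte genes as a covariate Cnp stood at 0.67 and passed narrowly (edgeR adjusted p = 0.0498). Ermn had 15.5, 12.2 and 20.1 CPM in Rag2-/-γc-/- libraries, against 13.2, 11.9 and 10.3 CPM in Rag2-/- libraries (0.43 ± 0.186, edgeR adjusted p = 0.332). Its highest value was library 3 in Rag2-/-γc-/- and its lowest was library 3 in Rag2-/-. Myrf had 35.2, 26.7 and 25.9 CPM in Rag2-/-γc-/- libraries, against 38.4, 32.2 and 25.6 CPM in Rag2-/- libraries (-0.13 ± 0.172, edgeR adjusted p = 0.763), with library 3 lowest in both. Of the 9 pigment epithelium genes 0 were called between the genotypes, and their summed level was 1568 to 2103 CPM in Rag2-/-γc-/- and 1465 to 1914 CPM in Rag2-/-.

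Within groups of the wild type, 0 of the 21 pairs of members passed at an adjusted permutation p under 0.05, by Pearson's r or by rank. Ermn with Myrf, given above, came closest. Mbp with Mobp had r = 0.59 and rho = 0.64 (permutation p = 0.0809 and 0.0271, adjusted 0.34 and 0.285), and r = 0.67 without the 2 farthest libraries. Mag with Mobp had r = 0.55 and rho = 0.31 (permutation p = 0.0674 and 0.27, adjusted 0.34 and 0.675), and r = 0.32 without the 2 farthest libraries. The mean of Mog, Mag, Mobp and Ermn was most like Gm13110 (r = 0.80), Apeh (r = 0.77), Dnajc11 (r = 0.72), Tmem143 (r = 0.70) and Zswim4 (r = 0.67) over the 16 libraries, none of which is on the oligodendrocyte lists. Of 12 Schwann cell genes 10 were tested in the wild type, and Egr2, a factor of peripheral myelination that also responds to injury, was called higher at day 3 and day 7. Of 12 genes of retinal ganglion cells, whose axons form the optic nerve, 3 were called lower at day 3 (Isl2, Nefh and Pou4f1) and 0 at day 7 or day 14. Over all tested genes 7.77%, 6.9% and 0.241% were called lower at day 3, 7 and 14. The median log2 fold change of the 12 genes stayed below 0, at -1.29, -1.25 and -0.87 at day 3, 7 and 14.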

How the data were processed

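Total RNA of retina and choroid was sequenced in 22 libraries. The authors deposited raw counts per gene, made with featureCounts 1.5.0-p3 on mm10 per the submitters' processing notes, and the sources used here name no aligner or strand setting. The deposited FPKM values equal the counts divided by gene length times 1 constant per library and served that check only. Per the file headers the wild-type file adds the authors' mean signal per group, log2 fold changes and p-values, quoted where named.

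Counts were tested with edgeR 4.0.16 in R 4.3.3 (filterByExpr with a minimum count of 10 and total of 15, TMM factors, robust quasi-likelihood, group means), over 16 wild-type and 6 Rag2 libraries separately, and the procedure was tested on simulated data. Correlations used 100000 permutations within groups of log2 CPM (prior count 2) with group means removed. Those on each side of the score gap used all permutations, across groups. Alternatives were DESeq2 1.42.0, other scalings, no filter, covariates, a replicate block, smaller fits and leaving out libraries. All 7 members are named, with at most 3 genes of smallest p per further list, defining markers, the called genes of short lists and 5 genes most like each pattern; called genes past the 3 of smallest p, and the list genes quoted for their level, were picked after their values were seen. The members and the 15 further lists were chosen with earlier results of these data known. All 7 members had the same coordinates in GENCODE M21. Promoters were given for 5 members. Some markers of the lists are not reported here by name.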

Additional observations from a re-analysis of the deposited data

Results flagged for a closer look

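In groups of 4 libraries the gap between the extreme library and its neighbour was compared with Dixon's limit, which chance passes in about 1 in 20 groups. Over 28 groups of the 7 genes, 4 passed. Cnp at day 3 had 32.7 CPM in replicate 4. Mag at day 7 had 2.06 CPM in replicate 2, and Mobp in the same library had 4.96 CPM. Mobp at day 3 had 2.63 CPM in replicate 1. The groups of 3 in the Rag2 set were not examined in this way.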

How the results depend on the processing

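The number of genes called moved by more than 1.5 times under many settings. DESeq2 called 4799 at day 3, 3768 at day 7 and 1778 at day 14 against control, 63 at day 7 and 115 at day 14 against day 3, and 695 between the Rag2 genotypes. It called 2 members at day 14 (Myrf and Ermn), and 1 (Cnp) at day 7 and 1 (Cnp) at day 14 against day 3. Without the low-count filter the counts were 1406, 751 and 26 against control, 2 at day 14 against day 3 and 491 between the Rag2 genotypes, with 1 member at day 7. With only the compared groups they were 7171, 4485 and 1 against control and 0 at day 14 against day 3, with 0 members at day 14. Lens and cornea scores gave 437 at day 3, and 3 at day 7 and 128 at day 14 against day 3, with 1 member at day 7 and 1 (Cnp) at day 14 against day 3. Library totals gave 6 at day 14 and 4 at day 14 against day 3, with 1 member at day 7.

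The labels state no pairing of the replicate numbers, and the libraries were not treated as paired. In each comparison at least 1 same-numbered pair correlated at 0.1 or less, while the highest pair reached 0.47. So few pairs cannot settle whether the numbers pair libraries. With the replicate block 2 genes were called at day 14, 0 at day 14 against day 3 and 46 between the Rag2 genotypes, with 1 member at day 7 and 0 at day 14; Ermn at day 7 was -0.91 and Myrf at day 14 was -1.25, not called, and Ermn at day 7 against day 3 was 0.0076. The block moved no other call of a member.

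Without the 2 libraries highest in Mobp of each set, 832, 43 and 7 genes were called against control, 0 at day 14 against day 3 and 31 between the Rag2 genotypes, with 0 members at day 7 and 0 at day 14. With the pigment epithelium score 2, 1222 and 1 were called, and 0 at day 14 against day 3, with 0 members at day 3 and 0 at day 14. Both settings were chosen after seeing the data. With the score of the 6 oligodendrocyte genes as covariate, of which 4 were tested and used, 1 member (Cnp) was called between the Rag2 genotypes. That score could not be fitted in the wild type, where 1 of its 6 genes was tested.

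Directions turned only for log2 fold changes that were not called. Lens and cornea scores took Mbp to -0.28, -0.41 and -0.43 against control, Mbp at day 7 against day 3 to -0.13 and Myrf at day 14 against day 3 to -0.018. Library totals took Mbp at day 14 to -0.00013 and Ermn at day 7 against day 3 to 0.043. With only the compared groups Ermn at day 7 against day 3 was 0.027 and Myrf at day 14 against day 3 was -0.0047, and without the filter Myrf at day 14 against day 3 was -0.013. The pigment epithelium score took Mog at day 14 to -0.16, Mbp and Myrf at day 7 against day 3 to -0.24 and -0.21, and Myrf at day 14 against day 3 to -0.15. Without the 2 libraries highest in Mobp, Mbp at day 7 against day 3 was -0.17, Myrf at day 14 against day 3 was -0.078, and in the Rag2 set Mag was 0.56 and Mobp 0.43. The score of the 4 tested oligodendrocyte genes as covariate took Mag, Mbp and Mobp in the Rag2 set to 0.88, 0.64 and 1.47. The cause of these moves was not tested.

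Leaving out 1 library at a time, 292 to 2409 genes were called at day 3, 128 to 2923 at day 7, 1 to 159 at day 14, 0 to 2 at day 7 against day 3, 0 to 1290 at day 14 against day 3 (1290 without day 14 replicate 1) and 25 to 116 between the Rag2 genotypes. Members called numbered 2 to 3 at day 3, 0 to 1 at day 7, 0 to 1 at day 14 and 0 to 1 at day 14 against day 3. Of the values that were not called, Mbp ranged from -0.082 to 0.14 at day 14, from -0.25 to 0.37 at day 7 against day 3, from -0.48 to 0.021 at day 14 against day 3 and from -1.28 to 0.74 in the Rag2 set. Mog ranged from -0.31 to 0.36 at day 14. Ermn ranged from -0.15 to 0.21 at day 7 and from -0.26 to 0.099 at day 14 against day 3. Myrf ranged from -0.078 to 0.11 at day 14 against day 3 and from -0.29 to 0.017 in the Rag2 set, where Mag ranged from -1.38 to 1.10 and Mobp from -2.36 to 2.13. Over all settings, 422 fold changes of members held their direction and side of the threshold, 37 lost a call, 6 gained one and 46 turned. Mog had 1 to 16 counts a wild-type library, so counting error on its levels is large.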
